A study of Bos taurus with 14 samples.

Results

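The genes described here encode the subunits of respiratory complexes II, III, IV and V, measured in *M. longissimus dorsi* (LD) muscle, the long muscle of the back. A gene was a member when its probe set carried a single symbol that was *SDHA*, *SDHB*, *SDHC*, *SDHD*, *CYC1* or *CYCS*, or that began with UQCR, ATP5, COX4, COX5, COX6, COX7 or COX8. Where a gene had several probe sets, the one with the highest mean over the 14 arrays stood for it. These rules gave 43 of the 9155 genes with a single symbol on the array, read from 53 probe sets. They comprised 4 genes of complex II, 9 of complex III, 13 of complex IV and 17 of complex V. The 13 include *COX7A2L*, known for joining complexes III and IV, and the 17 include the inhibitor *ATP5IF1*. No probe set was named *CYCS*, *COX4I2*, *COX6B1* or *COX7B*, and none was found by name for the subunits that mitochondrial DNA encodes, so these are not described.

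The animals were Charolais × Limousin crossbred heifers, allotted at random to a production system that they kept for the year before slaughter. The 7 outdoor/pasture-fed heifers grazed grass and clover, and the 7 indoor/concentrate-fed heifers were housed and offered concentrate and barley straw. By the study's methods, the concentrate allowance was set so that growth would be similar to that at pasture. Feed, housing and the scope for exercise differed together and cannot be told apart. Muscle was taken within 20 min postmortem and each heifer was hybridised to its own Affymetrix GeneChip Bovine Genome Array. By the study's methods, the heifers of each production system were managed in several groups. The labels name neither these groups nor a batch or an age per animal, so heifers that shared a group cannot be told from others and the p-values below treat all as independent.

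In the mitochondrion, complex II passes electrons from succinate to ubiquinone, complex III passes them on to cytochrome c, and complex IV, cytochrome c oxidase, delivers them to oxygen. Complexes III and IV pump protons, and complex V, the ATP synthase, lets the protons flow back and makes ATP. Complex II also works in the tricarboxylic acid cycle and is the only one of the 4 made wholly from nuclear genes. Skeletal muscle and heart use their own isoforms of several complex IV subunits, and oxidative muscle fibres hold more mitochondria than glycolytic ones.

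Levels are the deposited log2 values, which run from 4.95 to 14.44 over the bovine probe sets, and a difference on that scale is the outdoor/pasture-fed mean less the indoor/concentrate-fed mean. The summary method used by the authors returns an almost constant value for a probe set whose probes do not move together, and 59.9% of the 24016 bovine probe sets had an SD over the arrays of 0.01 or less. These are called flat here and the other 9623 are called varying. Of the members, 37 varied and 6 were flat, namely *SDHC*, *COX5B*, *COX6A1*, *COX6B2*, *COX8A* and *ATP5PO*. A flat value is not a measurement that the gene was unaltered. The array medians spanned 6.77 to 6.84 outdoors and 6.78 to 6.80 indoors, and the 3′ minus 5′ difference of the GAPDH control probe sets was −0.01 ± 0.03 outdoors and −0.03 ± 0.03 indoors (SD, n = 7 each, exact permutation p = 0.237). The tissue label matched its markers, since 6 of the 9 skeletal muscle markers had a probe set and *ACTA1*, *CKM* and *TNNT3*, which encode the actin, creatine kinase and fast troponin T of muscle, were flat at 14.11, 13.81 and 14.16, near the top of the scale. The 3 that varied were the fast myosin *MYH1*, at 13.94 outdoors and 13.81 indoors (exact permutation p = 0.00117, limma adjusted p = 0.148), nebulin, *NEB*, at 13.44 and 13.49, and desmin, *DES*, at 12.98 and 13.03.

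The subunit genes of all 4 complexes had slightly higher mean levels in heifers kept on pasture, by values that did not pass the test for any single gene. Of the 37 varying members, 36 had a higher mean outdoors and 1, *COX7A2*, a lower mean, while 47.5% of all varying probe sets were higher outdoors. The median difference of the varying members was 0.128, a fold of 1.09, and the differences ran from −0.023 to 0.291, beside a median of −0.008 over all varying probe sets. In muscle RNA as a whole, more cells or fibres of a type and more RNA per cell cannot be told apart.

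No member had an adjusted p under 0.05 with limma over all probe sets, where 4 probe sets or 0.0167% did, and the lowest adjusted p of a member was 0.147, that of *COX7A1*. In the fit to varying probe sets alone, 33 or 0.343% passed and again no member did, with *COX7A1* lowest at 0.061. At an unadjusted limma p under 0.05, 26 members were higher outdoors, or 60.5% of the 43, and 0 were lower, beside 5.35% of all probe sets that were higher at that level and 6.07% that were lower. Among the varying members the count was 25 of 37, or 21 in the fit to varying probe sets alone, and the exact permutation test also gave 25. Leaving out outdoor/pasture-fed replicate 1 lowered this count to 16, and leaving out indoor/concentrate-fed replicate 3 lowered it to 15. The members were read on the same 14 arrays and moved together from animal to animal, so these counts are not counts of independent results.

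Since most members had high levels on this array, the varying probe sets with a mean of 10 or more served as a nearer background. Among those 2592 probe sets, 47.6% were higher outdoors and 10.8% were higher at an unadjusted p under 0.05, with a median difference of −0.006. Of the 35 varying members in that range, 34 were higher and 24, or 68.6%, were higher at that level.

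**Figure D1:**
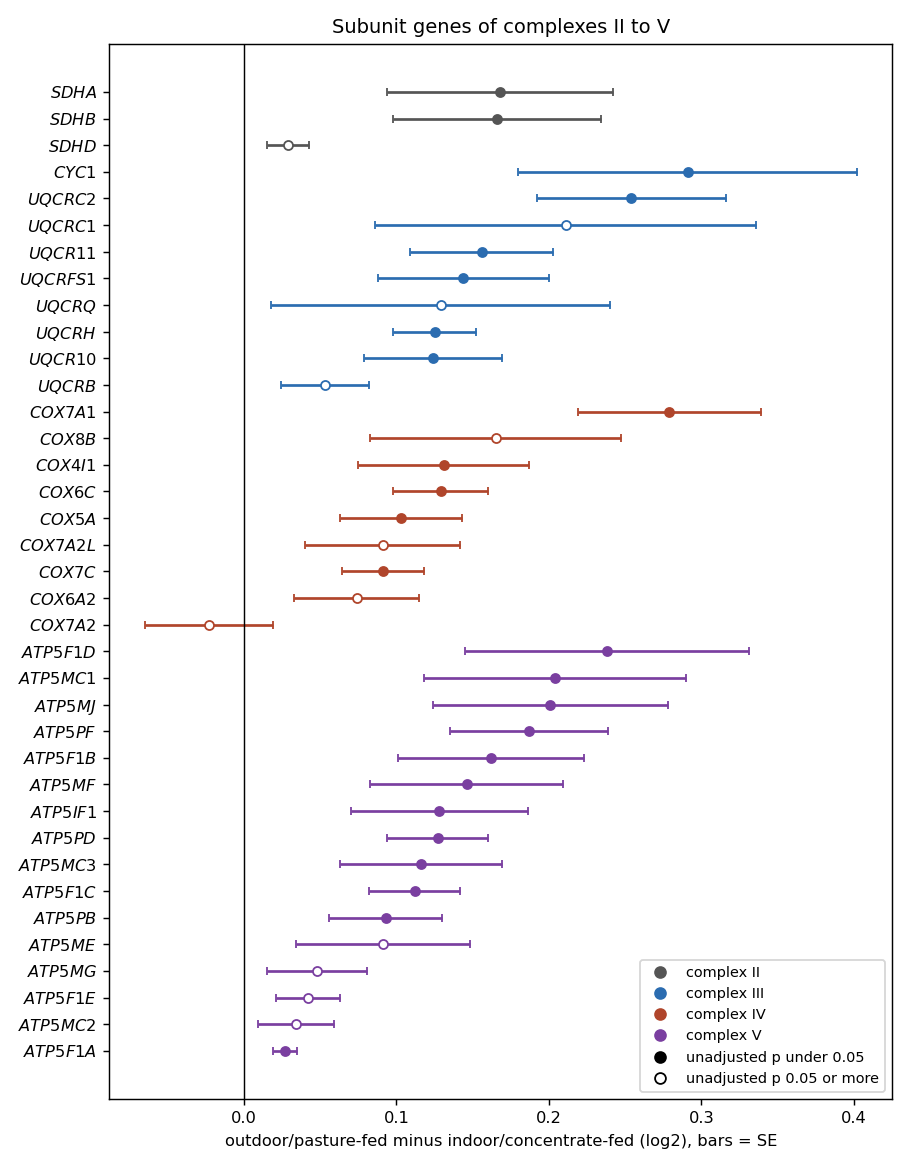
Outdoor minus indoor difference (log2, horizontal axis) for each of the 37 varying subunit genes, coloured by complex, with the standard error of the limma fit as a bar and filled points for the 25 with an unadjusted p under 0.05. All of these genes but *COX7A2* lie above 0.

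The median over the varying members was 0.166 for complex II, 0.144 for complex III, 0.103 for complex IV and 0.122 for complex V, and whether the complexes differed was not tested. Averaged over its varying members within each array, complex II stood at 12.04 ± 0.08 outdoors and 11.92 ± 0.10 indoors, complex III at 11.94 ± 0.10 and 11.78 ± 0.11, complex IV at 12.48 ± 0.05 and 12.37 ± 0.08, and complex V at 12.70 ± 0.08 and 12.58 ± 0.07 (SD, n = 7 each). The groups overlapped in each of these means. In complexes IV and V all 7 outdoor heifers lay above the indoor median, and in complexes II and III 6 of them did.

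Complex II, succinate dehydrogenase, had all 3 varying members higher outdoors, 2 of them at an unadjusted p under 0.05. *SDHA* encodes the flavoprotein that oxidises succinate, and its values ran from 11.46 to 11.75 outdoors with a median of 11.62, and from 11.25 to 11.75 indoors with a median of 11.35. Every outdoor heifer lay above the indoor median and 5 indoor heifers lay below all outdoor ones, while the highest indoor heifer, replicate 4, matched the top of the outdoor range. The difference for *SDHA* was 0.17 (SE 0.07, 1.12-fold, exact permutation p = 0.0495, limma adjusted p = 0.415).

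The iron-sulphur subunit *SDHB*, which carries electrons away from the flavoprotein, spanned 12.41 to 12.82 outdoors with a median of 12.70, and 12.31 to 12.67 indoors with a median of 12.50. Its difference was 0.17 (SE 0.07, exact permutation p = 0.0367, limma adjusted p = 0.38), and 4 outdoor heifers lay above all indoor ones. *SDHD*, one of the pair of subunits that anchor the complex in the membrane, spanned 11.83 to 11.91 outdoors with a median of 11.89 and 11.80 to 11.88 indoors with a median of 11.85. Here 5 outdoor heifers lay above all indoor ones, with a difference of 0.029 (SE 0.014, exact permutation p = 0.0647). The other anchor, *SDHC*, was flat at 12.18.

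Complex III, the cytochrome bc1 complex, had 9 varying members, all of them higher outdoors and 6 at an unadjusted p under 0.05. The difference was best separated from the spread between animals for *UQCRC2* and *UQCRH*. *UQCRC2* encodes a core protein of the complex, and its values ran from 12.54 to 12.90 outdoors with a median of 12.74, and from 12.31 to 12.70 indoors with a median of 12.50. Only indoor replicate 4 reached into the outdoor range, and 6 outdoor heifers lay above all indoor ones. The difference was 0.25 (SE 0.06, 1.19-fold, exact permutation p = 0.00117, limma adjusted p = 0.19).

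*UQCRH* encodes the hinge protein, which acts between cytochrome c1 and the mobile carrier cytochrome c, and spanned 13.10 to 13.25 outdoors with a median of 13.18, and 12.99 to 13.15 indoors with a median of 13.05. With 5 outdoor heifers above all indoor ones and 6 indoor heifers below all outdoor ones, its overlap again came down to indoor replicate 4. The difference was smaller than that of *UQCRC2*, at 0.125 (SE 0.027, 1.09-fold, exact permutation p = 0.00175, limma adjusted p = 0.157).

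The small accessory subunits *UQCR11* and *UQCR10* followed. *UQCR11* spanned 12.84 to 13.01 outdoors with a median of 12.94 and 12.69 to 12.99 indoors with a median of 12.80, a difference of 0.16 (SE 0.05, exact permutation p = 0.0111, limma adjusted p = 0.251). *UQCR10* spanned 12.72 to 12.94 outdoors with a median of 12.89 and 12.64 to 12.91 indoors with a median of 12.73, a difference of 0.12 (SE 0.045, exact permutation p = 0.0251, limma adjusted p = 0.316). Of the outdoor heifers, 3 lay above all indoor ones for *UQCR11* and 1 for *UQCR10*.

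*CYC1* encodes cytochrome c1, the haem protein that hands electrons to cytochrome c. On the probe sets that stood for the 43 members, it had the largest difference and also a wide spread. The dimmer probe sets of *UQCRB* and *ATP5MG*, given below, differed by more. The *CYC1* values ran from 9.82 to 10.29 outdoors with a median of 10.22, and from 9.42 to 10.19 indoors with a median of 9.86. The groups overlapped, with 4 outdoor heifers above all indoor ones, and the difference was 0.29 (SE 0.11, 1.22-fold, exact permutation p = 0.0221, limma adjusted p = 0.337). Of the remaining members, the Rieske iron-sulphur protein *UQCRFS1* differed by 0.14 (SE 0.06), the core protein *UQCRC1* by 0.21 (SE 0.125), *UQCRQ* by 0.13 (SE 0.11) and *UQCRB* by 0.053 (SE 0.029). The exact permutation p was 0.0291 for *UQCRFS1* and ran from 0.0804 to 0.278 for the other three.

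**Figure D2:**
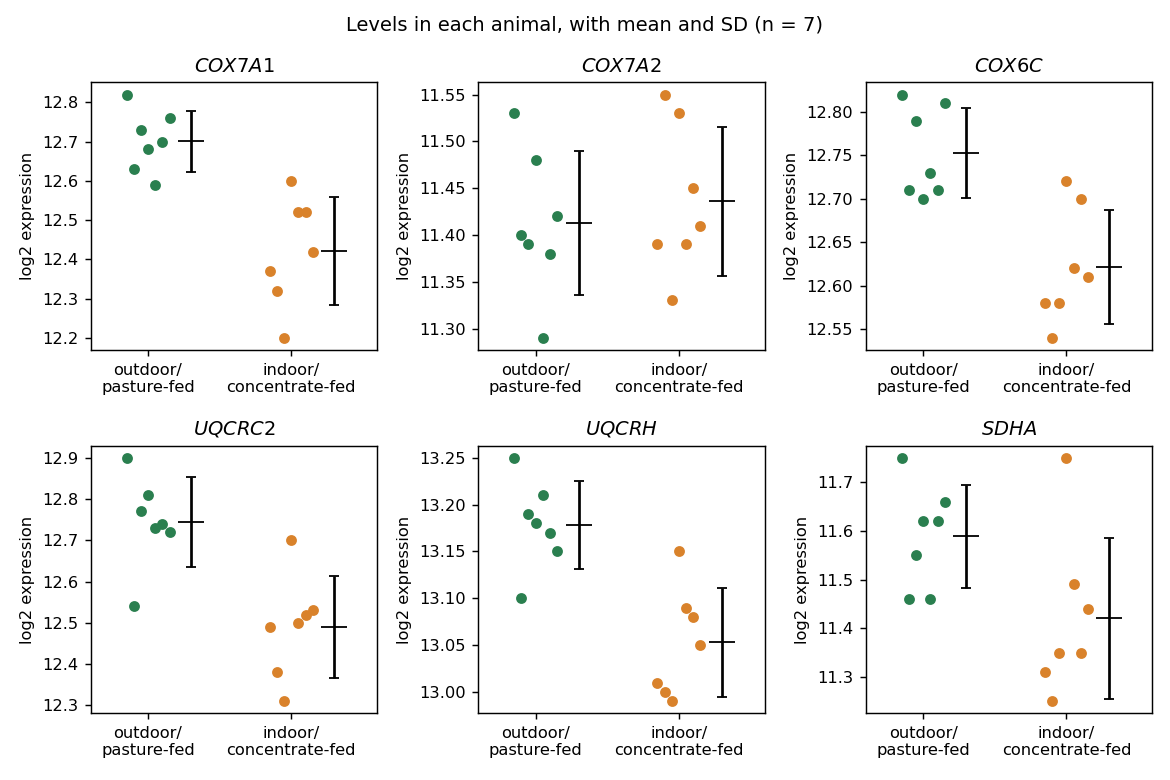
Level (log2, vertical axis) of selected subunit genes in each heifer of the pasture-fed and the concentrate-fed group, with the mean and SD of each group (n = 7). *COX7A1* and *UQCRC2* show 6 outdoor heifers above all indoor ones, and *COX7A2* shows none.

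Complex IV, cytochrome c oxidase, had 8 of 9 varying members higher outdoors, 5 of them at an unadjusted p under 0.05. The heart and skeletal muscle isoform *COX7A1* stood out among them in size. Its values ran from 12.59 to 12.82 outdoors with a median of 12.70, and from 12.20 to 12.60 indoors with a median of 12.42. Outdoor replicate 5, at 12.59, and indoor replicate 4, at 12.60, were the only heifers that overlapped, and the other 6 outdoor heifers lay above all indoor ones. The mean was 12.70 ± 0.08 outdoors and 12.42 ± 0.14 indoors (SD, n = 7 each), a difference of 0.28 (SE 0.06, 1.21-fold, exact permutation p = 0.00117). Over the alternatives run, its limma adjusted p ranged from 0.061 to 0.319, so it missed the threshold in each.

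*COX7A2* encodes the isoform of the same subunit that most other tissues use, and it was the varying member with a lower mean outdoors. Its values ran from 11.29 to 11.53 outdoors with a median of 11.40, and from 11.33 to 11.55 indoors with a median of 11.41, so that the groups lay over each other. The difference was −0.023 (SE 0.042, exact permutation p = 0.604), and its sign turned to 0.002 with array weights. Within each array, *COX7A1* minus *COX7A2* was 1.29 ± 0.06 outdoors and 0.99 ± 0.13 indoors (SD, n = 7 each). It spanned 1.20 to 1.34 outdoors and 0.77 to 1.13 indoors, so the groups did not overlap. The within-array difference of the 2 probe sets was thus larger outdoors by 0.30 or 1.23-fold, which was not tested, while their levels cannot be set against each other. The pair sets the member with the lowest adjusted p against the only varying member that was lower. Of all single probe sets, 0.371% had groups that did not overlap, and the share over other pairs was not computed.

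The other isoform pairs were less informative, because the partner found outside striated muscle was flat. *COX6A2*, the heart and muscle form of subunit 6A, spanned 11.01 to 11.22 outdoors with a median of 11.18 and 10.95 to 11.15 indoors with a median of 11.12. It differed by 0.074 (SE 0.041, exact permutation p = 0.0944), with 5 outdoor heifers above all indoor ones and *COX6A1* flat at 8.71. *COX8B*, the heart and muscle form of subunit 8, spanned 12.52 to 12.93 outdoors with a median of 12.83 and 12.40 to 12.83 indoors with a median of 12.65. Here 4 outdoor heifers lay above all indoor ones.

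The difference for *COX8B* was 0.17 (SE 0.08, exact permutation p = 0.0688), but its other probe set differed by 0.004 (SE 0.034), so the readings of this gene disagree. *COX8A* was flat at 9.20 and *COX6B2*, known as the testis form of subunit 6B, was flat at 6.0. Taken within arrays, *COX6A2* minus *COX6A1* was 2.44 ± 0.07 outdoors and 2.37 ± 0.08 indoors, and *COX8B* minus *COX8A* was 3.58 ± 0.14 and 3.42 ± 0.16. With the partner flat, these values restate the muscle isoform, and in both pairs the groups overlapped.

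**Figure D3:**
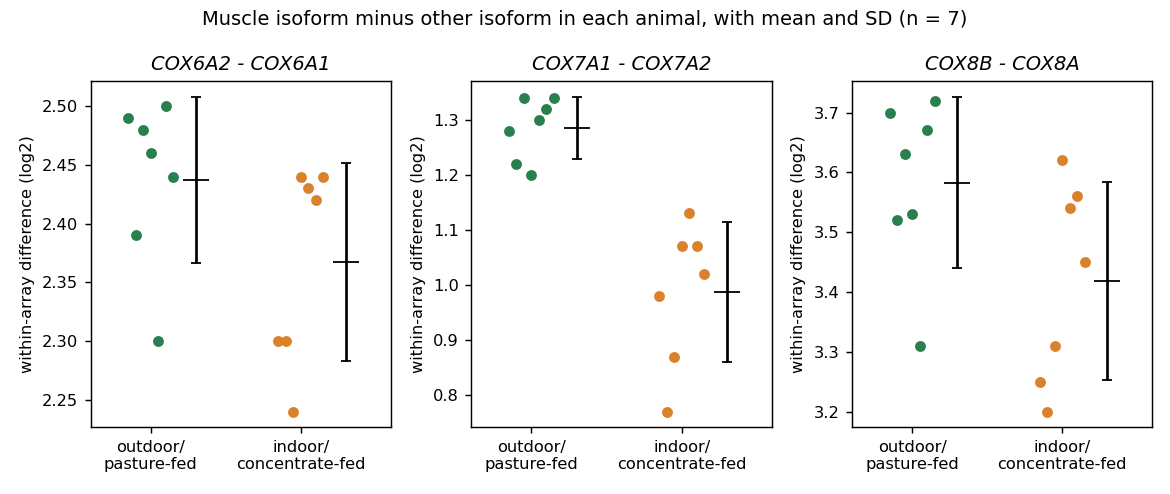
Level of the muscle isoform minus that of the other isoform within each array (log2, vertical axis), with the mean and SD of each group (n = 7). The groups are apart for *COX7A1* minus *COX7A2*, at 1.20 to 1.34 outdoors and 0.77 to 1.13 indoors, and overlap for the other pairs, whose partners were flat.

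Among the subunits of complex IV without a muscle isoform on this list, *COX6C* and *COX7C*, small subunits of the membrane part, had narrow ranges. *COX6C* spanned 12.70 to 12.82 outdoors with a median of 12.73 and 12.54 to 12.72 indoors with a median of 12.61, a difference of 0.13 (SE 0.03, exact permutation p = 0.00408, limma adjusted p = 0.188). *COX7C* spanned 12.94 to 13.07 outdoors with a median of 13.02 and 12.84 to 12.98 indoors with a median of 12.92, a difference of 0.091 (SE 0.027, exact permutation p = 0.00583, limma adjusted p = 0.242). For *COX7C* 6 outdoor heifers lay above all indoor ones, and for *COX6C* 4 did.

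*COX5A*, a subunit on the matrix side, spanned 13.36 to 13.52 outdoors with a median of 13.45 and 13.18 to 13.46 indoors with a median of 13.36, a difference of 0.10 (SE 0.04, exact permutation p = 0.0192, limma adjusted p = 0.349). *COX4I1*, the common isoform of the subunit at which ATP acts on the enzyme, spanned 12.83 to 13.16 outdoors with a median of 13.11 and 12.82 to 13.11 indoors with a median of 12.94. It differed by 0.13 (SE 0.06, exact permutation p = 0.0396, limma adjusted p = 0.398), and for each of these genes 3 outdoor heifers lay above all indoor ones. *COX7A2L*, related in sequence to subunit 7A and known for joining complexes III and IV, differed by 0.091 (SE 0.051, exact permutation p = 0.102), and *COX5B* was flat at 13.64.

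Complex V, the ATP synthase, had all 16 varying members higher outdoors. At an unadjusted p under 0.05 there were 12, or 8 in the fit to varying probe sets alone. The smallest p-values among these belonged to stalk subunits. *ATP5PD*, subunit d of the outer stalk, spanned 12.96 to 13.14 outdoors with a median of 13.08 and 12.84 to 13.04 indoors with a median of 12.95, a difference of 0.13 (SE 0.03, exact permutation p = 0.00408, limma adjusted p = 0.209). *ATP5PF*, coupling factor 6 of the same stalk, spanned 12.44 to 12.73 outdoors with a median of 12.58 and 12.24 to 12.56 indoors with a median of 12.43. Its difference was 0.19 (SE 0.05, 1.14-fold, exact permutation p = 0.00408, limma adjusted p = 0.233), and 6 outdoor heifers lay above all indoor ones.

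*ATP5F1C*, the gamma subunit that turns inside the catalytic head, spanned 13.15 to 13.28 outdoors with a median of 13.24 and 13.02 to 13.18 indoors with a median of 13.11. The difference was 0.11 (SE 0.03, exact permutation p = 0.00408, limma adjusted p = 0.219), and 1 indoor heifer, replicate 4, reached into the outdoor range. *ATP5PO*, which joins the outer stalk to the head, was flat at 13.06 with an SD of 0.00142. Its groups did not overlap, the only such member, beside 0.371% of all probe sets, but over a difference of 0.002, which accounts for the unadjusted count of 26 against 25 among varying members.

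The inhibitor *ATP5IF1*, which blocks the synthase from running backwards when the mitochondrial membrane is de-energised, was in the same direction as the subunits. It spanned 13.01 to 13.21 outdoors with a median of 13.08 and 12.78 to 13.14 indoors with a median of 12.98, a difference of 0.13 (SE 0.06, exact permutation p = 0.0484, limma adjusted p = 0.427). Only 2 outdoor heifers lay above all indoor ones, while 4 indoor heifers lay below all outdoor ones.

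The other members of complex V are given by their roles. In the catalytic head, the alpha subunit *ATP5F1A* differed by 0.027 (SE 0.008) and the beta subunit *ATP5F1B* by 0.16 (SE 0.06). Of the central stalk, the delta subunit *ATP5F1D* differed by 0.24 (SE 0.09) and the epsilon subunit *ATP5F1E* by 0.042 (SE 0.021). The genes *ATP5MC1*, *ATP5MC2* and *ATP5MC3* encode the same ring protein of the membrane rotor and differed by 0.20 (SE 0.09), 0.034 (SE 0.025) and 0.12 (SE 0.05). The stalk subunit *ATP5PB* differed by 0.093, and the small membrane subunits *ATP5MJ*, *ATP5MF*, *ATP5ME* and *ATP5MG* by 0.20, 0.15, 0.091 and 0.048. No adjusted p among these was below 0.234.

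A further probe set existed for 10 members. Of these 10, 4 were flat, 5 were higher outdoors and 1 was lower, and 3 of the higher ones had an unadjusted p under 0.05. These 3 are second readings of genes described above. Of all probe sets 5.35% were higher at that level, and of varying ones with a mean of 10 or more 10.8% were. For *UQCRB*, *ATP5MG* and *ATP5F1D* the reading depended on the probe set. The dimmer probe set differed by 0.40 (SE 0.15, exact permutation p = 0.0198) for *UQCRB* and by 0.31 (SE 0.09, exact permutation p = 0.0035) for *ATP5MG*, against 0.053 and 0.048 above, and by −0.017 (SE 0.084) for *ATP5F1D*, against 0.24. For *ATP5F1B* the probe sets were close, at 0.16 and 0.17. The dimmer probe set of *COX6C* differed by 0.15 with a wider spread (SE 0.12, exact permutation p = 0.229), and that of *UQCRC2* was flat at 8.17.

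The members varied together from heifer to heifer. Outdoor replicate 1 had the highest value of all 14 heifers in 24 of the 37 varying members and lay above the mean of the 14 in all 37, by 0.176 on average. At the other end, indoor replicate 3 had the lowest value of all in 22 members and lay below the mean in every one, by 0.188 on average, and indoor replicate 2 was lowest in 10. Indoor replicate 4 ran against its group. It was above the mean of the 14 in 34 members and the highest indoor heifer in 31, with an average deviation of 0.079, and was the highest indoor heifer in each complex mean. Outdoor replicates 5 and 2 were the lowest of their group, in 17 and 16 members, with average deviations of −0.058 and −0.013. In 19 of the varying members all 7 outdoor heifers lay above the indoor median. The share of all probe sets with that order was not computed.

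**Figure D4:**
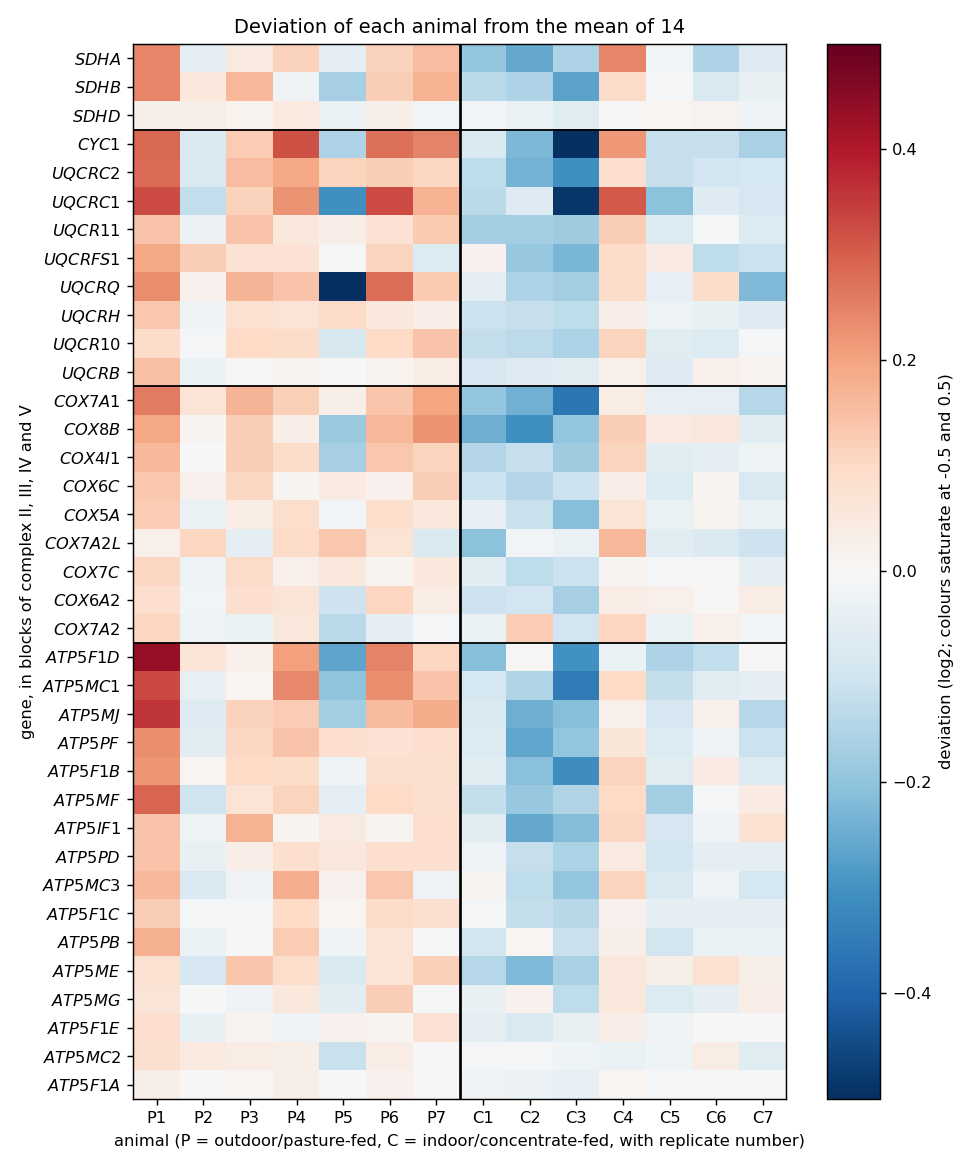
Deviation of each heifer (columns) from the mean of the 14 (log2, colour) for each varying subunit gene (rows, by complex). Outdoor replicate 1 is above the mean in all 37 genes, indoor replicate 3 is below it in all 37, and indoor replicate 4 is above it in 34.

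Complex I, the NADH dehydrogenase that feeds electrons into the chain beside complex II, was read from 38 genes named as its subunits. These include *NDUFA4*, which is now counted with complex IV and differed by 0.052 (SE 0.019), and is among the 12 below, and its relative *NDUFA4L2*, which was flat. Of the 34 that varied, 33 were higher outdoors and 1 lower, and 12 of the higher ones had an unadjusted p under 0.05, with a median difference of 0.108. The 3 with the smallest p were *NDUFA12*, at 0.19 (SE 0.04, exact permutation p = 0.0035), *NDUFA9*, at 0.22 (SE 0.07, exact permutation p = 0.00816), and *NDUFS5*, at 0.13 (SE 0.04, exact permutation p = 0.00991). None passed the adjusted threshold in limma, the lowest adjusted p being 0.187. Among varying probe sets with a mean of 10 or more, 10.8% were higher at an unadjusted p under 0.05.

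The assembly factors of complexes II to V build the complexes without being part of them. Of 39 listed, 21 had a probe set and 15 varied, 12 higher and 3 lower outdoors, with 3 higher and 0 lower at an unadjusted p under 0.05 and a median difference of 0.088. These 3 were *COX15*, which acts in the synthesis of haem A, at 0.099 (SE 0.038), *COA5*, a complex IV factor, at 0.091 (SE 0.036), and *TMEM70*, an ATP synthase factor, at 0.20 (SE 0.09). Of all probe sets 5.35% were higher at that level, and of varying ones with a mean of 10 or more 10.8% were.

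Of 13 transcriptional regulators of respiratory genes listed, 7 had a probe set and 5 varied, 2 higher and 3 lower outdoors, none at an unadjusted p under 0.05, with a median of −0.005. *PPARGC1A*, the coactivator known to drive mitochondrial gene expression in muscle, had a mean of 10.91 ± 0.14 outdoors and 11.18 ± 0.40 indoors (SD, n = 7 each), a difference of −0.27 (SE 0.16, exact permutation p = 0.118). *TFB2M*, a mitochondrial transcription factor, differed by 0.098 (SE 0.066), and its relative *TFB1M* was flat.

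Markers of fibre types and of other cells were read on the same arrays. Of all probe sets, flat ones included, 5.35% were higher and 6.07% lower at an unadjusted p under 0.05. The marker counts below are among varying probe sets. Of all varying probe sets with a mean of 10 or more, 10.8% were higher at that level. Of the 8 slow fibre markers measured, 6 varied and all 6 were higher outdoors, 1 of them (*ATP2A2*, the calcium pump of slow fibres, by 0.16) at an unadjusted p under 0.05, with a median of 0.119. Their mean per array spanned 13.39 to 13.62 outdoors and 12.77 to 13.57 indoors. Of the 6 fast fibre markers, 5 varied, with 1 higher and 4 lower and a median of −0.017, and the mean per array spanned 13.79 to 13.87 outdoors and 13.78 to 13.86 indoors. The one that was higher was *MYH1*, a fast myosin, by 0.14 (SE 0.03, exact permutation p = 0.00117), and 3 of the lower ones had an unadjusted p under 0.05.

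Endothelial markers had the largest median difference of these lists. Of 6 measured, 5 varied and all 5 were higher outdoors at an unadjusted p under 0.05, with a median of 0.432, while *VWF* was flat at 5.75. The mean per array spanned 8.99 to 9.41 outdoors and 8.48 to 9.0 indoors. *PECAM1*, a junction protein of endothelium, differed by 0.54 (SE 0.11, exact permutation p = 0.000583, the smallest the design allows) and *CDH5*, vascular cadherin, by 0.60 (SE 0.15, exact permutation p = 0.00233).

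All 5 leukocyte markers measured were higher outdoors and all 5 adipocyte markers were lower, with medians of 0.127 and −0.218 and none at an unadjusted p under 0.05. The leukocyte mean spanned 6.87 to 7.62 outdoors and 6.5 to 7.48 indoors, and the adipocyte mean 6.39 to 7.23 and 6.30 to 8.20. Fibroblast markers were split 3 and 3 (median −0.023), 3 of 4 smooth muscle markers were higher (median 0.15), and 1 of the 4 red blood cell markers measured varied, by −0.023. No gene of these lists passed the adjusted threshold in limma. The part of fibre type and of other cells in the differences of the subunit genes was not tested.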

How the data were processed

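Per the labels and the study's methods, total RNA of LD muscle was amplified, biotin labelled and hybridised to 14 Affymetrix GeneChip Bovine Genome Arrays, 7 per group. The authors deposited log2 values, made by quantile normalisation and FARMS summarisation (versions not given in the sources used here). They were used as deposited. The authors' filter for informative probe sets was not applied, and 112 control probe sets were left out.

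For 24016 probe sets, limma 3.58.1 (R 4.3.3; lmFit, then eBayes) gave the group difference without covariates. Its p-values were adjusted by Benjamini-Hochberg and called under 0.05. The fit had 0.214 prior degrees of freedom, and 2.02 in the fit to the 9623 varying probe sets. Two-sided exact permutation tests (Python 3.11.15) enumerated 3432 assignments of the arrays, the smallest possible p being 0.000583. The number of arrays limits the precision.

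Gene names come from the platform annotation, in which 13292 probe sets have 1 symbol, 86 have several and 10638 have none. All 43 gene identifiers matched RefSeq (ARS-UCD2.0), used for names only. The members and lists were chosen with earlier results of these data known. Described with values per group are isoform pairs, complex II, *CYC1*, *ATP5IF1* and the 4 genes of smallest p in each of complexes III to V, and in other lists the 3 of smallest p. Marker lists name at most 2 genes, besides flat or muscle-defining ones that were named after their values were seen.

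Alternatives were a replicate block, SD filters of 0.01 and 0.1, a filter on the mean, trended and robust priors, renewed quantile normalisation, median centring, array weights, other choices of probe set, and leaving out each array. Leaving out both arrays of lowest weight was added after seeing the data. Promoter sequences were not analysed here.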

Additional observations from a re-analysis of the deposited data

How the results depend on the processing

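No member passed the adjusted threshold under any alternative run. The count of varying members higher outdoors at an unadjusted p under 0.05, 25 as reported, ranged from 15 to 29 without each array in turn. It was 11 when only probe sets with an SD above 0.1 entered. Fewer members entered that fit, so that 22 were higher instead of 36. Some unadjusted limma p-values also rose there, that of *COX4I1* from 0.0365 to 0.0682 and that of *UQCR10* from 0.0169 to 0.0554. The p of *CYC1* fell from 0.0218 to 0.017. *COX7A2* turned from −0.023 to 0.002 with array weights and to 0.017 without both arrays of lowest weight, the latter chosen after seeing the data, and the cause was not tested. The mean difference kept its direction without each array, at 0.103 to 0.15 for complex II, 0.137 to 0.199 for complex III, 0.098 to 0.138 for complex IV and 0.102 to 0.141 for complex V, and *COX7A1* minus *COX7A2* ran from 0.266 to 0.326.

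Deviations of same-numbered animals correlated at −0.184 to 0.235 and the best match had the same number in 2 of 7. These values do not show a pairing of animals by replicate number, and they cannot exclude one. With the replicate block the count was 21, no member passed the threshold and *COX7A1* had an adjusted p of 0.319 in limma.

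The fit across all probe sets has few prior degrees of freedom, since most probe sets are flat, and the small differences of the members lie near the spread between 7 animals. A p that misses the threshold does not show that the groups were alike.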
